A study of Mus musculus with 12 samples.

Results

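The 9 genes described here encode the inducible proteasome and the machinery that loads its products onto MHC class I molecules: Psmb8, Psmb9, Psmb10, Psme1, Psme2, Tap1, Tap2, Tapbp and Erap1. They were chosen by name, from their known place in the pathway, with earlier results of these data known. All 9 were found among the 21853 genes of the table and passed the filter on low values. Whole bone marrow of B6 mice was sequenced in 4 groups of 3 libraries. Control mice were not irradiated. TBI mice received 5 Gy of γ-rays over the whole body (total body irradiation) at 0.66 Gy per minute and 100 µL of olive oil, the vehicle, by mouth. TBI+DEIX mice received the same irradiation and then 25 mg/kg of DEIX (deinoxanthin, a carotenoid pigment of Deinococcus bacteria) by mouth once a day for 14 days, and DEIX mice received the compound without irradiation. Marrow was taken 14 days after irradiation. The labels name no vehicle for control mice, so whether handling by mouth differed between control and the treated groups is not known here. They do not say whether the libraries came from separate mice. The p-values therefore measure only the spread between these libraries, which may be technical.

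Proteins that have been tagged for destruction are cut into peptides by the proteasome. Interferon, above all interferon gamma, makes cells exchange the 3 standard catalytic subunits Psmb5, Psmb6 and Psmb7 for Psmb8, Psmb9 and Psmb10, which gives the immunoproteasome, while Psme1 and Psme2 form the PA28 cap that opens it. Tap1 and Tap2 pair to pump peptides into the endoplasmic reticulum, where Erap1 trims them and tapasin, the product of Tapbp, helps fit them to class I heavy chains. Blood cells express this machinery without stimulation, lymphocytes and dendritic cells strongly, and the transactivator Nlrc5 drives several of its genes.

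A run of 4 of the genes lies side by side in the class II region of the MHC on chromosome 17 of GRCm38 (GENCODE vM21): Psmb9 at chr17:34181987-34187764 on the minus strand, then Tap1 at chr17:34187553-34197225, Psmb8 at chr17:34197721-34201454 and Tap2 at chr17:34203527-34216321 on the plus strand. This run of 34335 bases holds 4 protein-coding genes, all of them members. Tapbp lies on the same chromosome at chr17:33915899-33929292, and Psme1 and Psme2 are close neighbours at chr14:55578123-55581529 and chr14:55587441-55591113. Psmb10 is at chr8:105935735-105938444 and Erap1 at chr13:74639568-74693201. Psmb9 and Tap1 are read in opposite directions from a shared stretch, and their RefSeq start sites are 225 bases apart. That stretch, chr17:34187330-34187556 on the plus strand of GRCm38.p6, is shown because it lies in front of both a transporter and a catalytic subunit.

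Psmb9 and Tap1: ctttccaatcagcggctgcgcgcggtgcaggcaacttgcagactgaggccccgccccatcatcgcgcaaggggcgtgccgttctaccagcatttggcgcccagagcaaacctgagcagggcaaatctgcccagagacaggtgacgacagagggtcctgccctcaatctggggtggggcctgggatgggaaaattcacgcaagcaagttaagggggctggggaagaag

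RefSeq windows of 250 bases before to 50 bases after the start were found for 8 of the 9 genes, Tap2 being the one without. They were searched on both strands for 3 motifs. The core of the interferon-stimulated response element, 2 copies of GAAA separated by any 2 bases, occurred in the windows of 2 genes, Psme1 and Erap1, and in 3.44% of all 32851 windows. The gamma-activated site TTCNNNGAA occurred in the window of 1 gene, Psmb8, against 8.3% of all windows, and the NF-kB motif GGGNNTTCC in none, against 5.82%. The stretches of Psme1 (chr14:55578404-55578523) and Erap1 (chr13:74639763-74639882), both on the plus strand of GRCm38.p6 and running from 90 bases before the start, are shown with the response-element core in capitals, which reads on the opposite strand. They are shown because these are the genes whose windows hold that motif.

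Psme1: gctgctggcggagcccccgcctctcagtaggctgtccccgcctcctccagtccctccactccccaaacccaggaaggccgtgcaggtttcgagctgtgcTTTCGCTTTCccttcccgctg

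Erap1: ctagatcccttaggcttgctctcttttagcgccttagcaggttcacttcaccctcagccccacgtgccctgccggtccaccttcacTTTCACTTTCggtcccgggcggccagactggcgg

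Levels are given as FPKM as deposited, in which the fragments of a gene are divided by its length and by the library's mapped total. Differences are log2 changes of FPKM + 1 fitted with limma over all 12 libraries and adjusted by the Benjamini-Hochberg method over the 10994 genes tested. A gene was called at an adjusted p under 0.05. Summed FPKM ran from 493700 in TBI+DEIX replicate 1 to 848800 in TBI+DEIX replicate 3, and between 10359 and 10832 genes reached 1 FPKM per library. The number of reads behind each library is not given. TBI+DEIX replicate 1 stood apart: its Pearson r with the other 11 libraries, across genes, was between 0.887 and 0.945, and it was the lowest of the 12 libraries for 6 of the 9 genes. Values without it are given beside the members' calls that rest on that group. Because the marrow was sequenced in bulk, fewer cells of a type and less RNA per cell cannot be told apart. Maturing neutrophil markers, the most abundant of the marrow lists, summed to between 20350 and 51230 FPKM per library.

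The transporter gave the clearest result. Tap1 had 62.1, 73.8 and 69.5 FPKM in control replicates 1 to 3, 42.6, 34.6 and 43.8 in DEIX, 35.7, 37.7 and 33.6 in TBI and 36.1, 47.1 and 61.2 in TBI+DEIX. All 9 libraries of the treated groups lay below the lowest control library. Tap1 fell after TBI, with a log2 change of -0.92 (SE 0.17, 95% interval -1.29 to -0.55, limma adjusted p = 0.0123, lower in 3 of 3 libraries). It also fell with DEIX alone, by 0.75 on the log2 scale (SE 0.17, limma adjusted p = 0.0264), and in TBI+DEIX against control, by 0.53 (SE 0.17, limma adjusted p = 0.0353; -0.34 without TBI+DEIX replicate 1). The 3 comparisons share the control libraries. The call after TBI was lost without control replicate 2 (limma adjusted p = 0.0636) or control replicate 3 (0.0608), and the call with DEIX alone was lost without any 1 of its 6 libraries (0.0552 to 0.115). The call in TBI+DEIX was lost without any 1 control library (limma adjusted p = 0.0520, 0.118 and 0.0936 for replicates 1 to 3) or without TBI+DEIX replicate 1 (0.0693) or 2 (0.0667), with no filter on low values (0.0521) and with only the groups compared (0.109).

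Tap2, the partner of Tap1 in the heterodimer, had another pattern. Its levels were 38.2, 43.3 and 48.9 FPKM in control, 44.2, 38.7 and 44.0 in DEIX, 39.5, 39.1 and 38.3 in TBI and 51.3, 55.5 and 63.0 in TBI+DEIX. The 3 TBI+DEIX libraries were the highest of all 12 in FPKM as deposited, and the other 9 overlapped. That order depends on the scale: divided by summed FPKM, TBI+DEIX replicate 3 falls below control replicate 3. Tap2 rose in TBI+DEIX against TBI, with a log2 change of 0.52 (SE 0.11, 95% interval 0.28 to 0.77, limma adjusted p = 0.0230), and against control, with a log2 change of 0.38 (SE 0.11, limma adjusted p = 0.0262). Both calls held without TBI+DEIX replicate 1, at 0.59 (limma adjusted p = 0.00730) and 0.44 (0.00941). After TBI its log2 change was -0.15 (95% interval -0.39 to 0.10) and with DEIX alone -0.03 (95% interval -0.28 to 0.21), neither of them called. On a TPM scale, which divides each library by its summed FPKM, the rise against TBI was not called (limma adjusted p = 0.262), and neither was the rise against control (0.363). Against TBI the call was also lost without TBI replicate 2 (limma adjusted p = 0.0600), TBI replicate 3 (0.105) or TBI+DEIX replicate 3 (0.0848) and with only the groups compared (0.144), and against control with quantile normalization (0.104), with only the groups compared (0.0955) or without control replicate 1 (0.102), control replicate 2 (0.0771) or TBI+DEIX replicate 3 (0.0905).

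The ratio of Tap1 to Tap2 within a library does not depend on how libraries are scaled, and it was looked at after the levels had been seen. It was 1.62, 1.71 and 1.42 in control, 0.965, 0.893 and 0.996 in DEIX, 0.904, 0.966 and 0.875 in TBI and 0.704, 0.848 and 0.972 in TBI+DEIX. Tap1 was above Tap2 in every control library and below it in every other library. The group means were 1.58 ± 0.146 in control, 0.951 ± 0.0526 in DEIX, 0.915 ± 0.0464 in TBI and 0.841 ± 0.134 in TBI+DEIX (SD, n = 3), and no test is given for a ratio picked in this way.

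**Figure D1:**
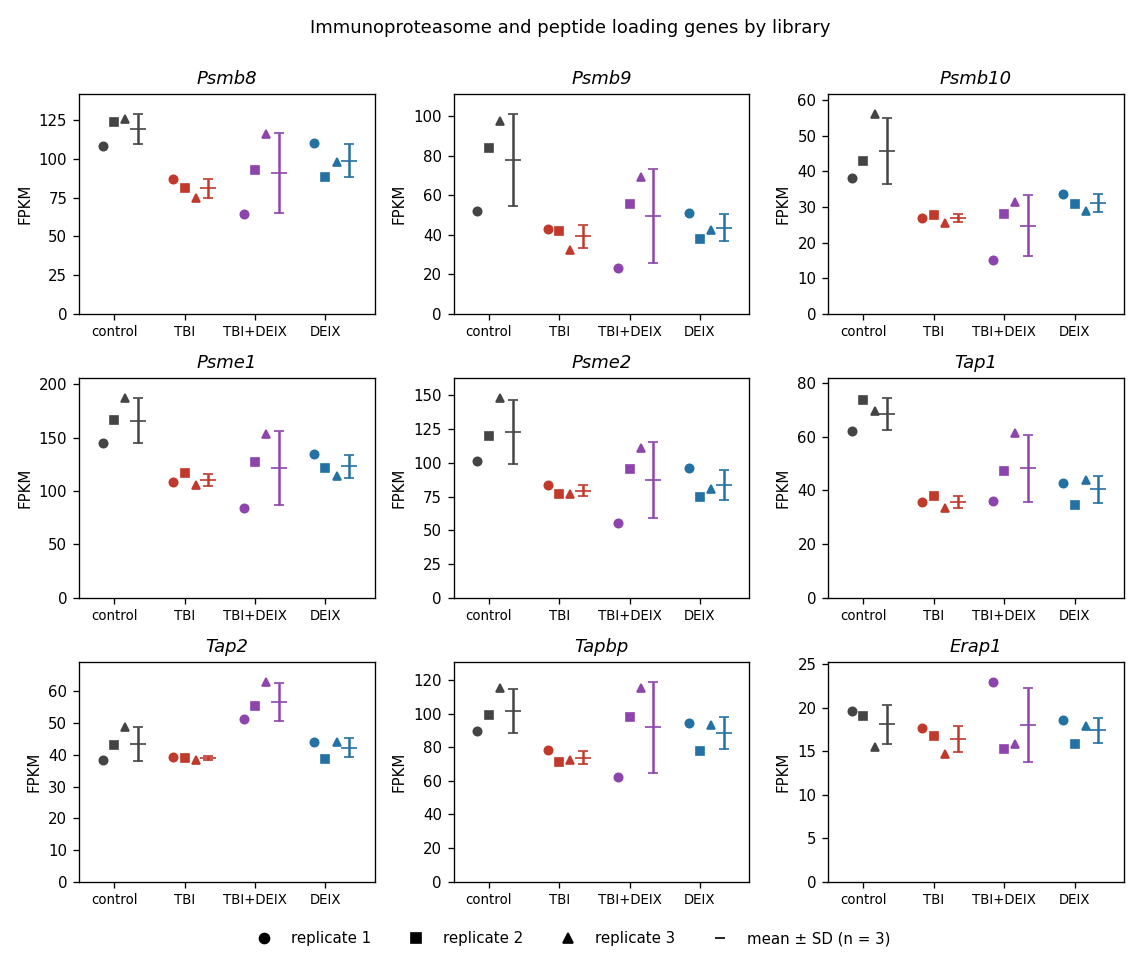
FPKM of the 9 genes (vertical axes, linear and from 0) in the 4 groups; circles, squares and triangles are replicates 1, 2 and 3, and bars are the mean ± SD of 3 libraries. Tap1 is lower in all 9 treated libraries than in any control library, Tap2 is highest in the 3 TBI+DEIX libraries, and TBI+DEIX replicate 1 is the lowest library for 6 genes.

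The 3 catalytic subunits of the immunoproteasome were lower after TBI without passing the test. Psmb8, which replaces Psmb5 and carries the chymotrypsin-like activity, had 108, 124 and 126 FPKM in control, 110, 88.6 and 98.1 in DEIX, 87.3, 81.4 and 74.9 in TBI and 64.6, 92.6 and 116 in TBI+DEIX. The TBI libraries lay below all controls, while the DEIX libraries overlapped them. The log2 change of Psmb8 was -0.55 after TBI (SE 0.18, limma adjusted p = 0.134) and -0.27 with DEIX (SE 0.18, limma adjusted p = 0.389).

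Psmb9, which replaces Psmb6, had 52.1, 84.1 and 97.5 FPKM in control, 51.0, 37.7 and 42.2 in DEIX, 42.9, 42.0 and 32.5 in TBI and 23.2, 55.6 and 69.4 in TBI+DEIX. It was the member that varied most, with a 4.2-fold range over the 12 libraries. Control replicate 1 was only just above the DEIX libraries. The log2 change of Psmb9 was -0.94 after TBI (SE 0.35, limma adjusted p = 0.180) and -0.79 with DEIX (SE 0.35, limma adjusted p = 0.190).

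Psmb10, which replaces Psmb7 and carries the trypsin-like activity, had 38.1, 42.9 and 56.2 FPKM in control, 33.7, 30.8 and 28.8 in DEIX, 27.0, 27.8 and 25.6 in TBI and 15.0, 27.9 and 31.4 in TBI+DEIX. No library of a treated group reached the lowest control. Psmb10 fell in TBI+DEIX against control, by 0.90 on the log2 scale (SE 0.23, 95% interval -1.40 to -0.40, limma adjusted p = 0.0128). The change was -0.59 without TBI+DEIX replicate 1 (limma adjusted p = 0.00816). The call was lost without control replicate 3 (limma adjusted p = 0.0561) and with only the groups compared (0.0739). After TBI its log2 change was -0.73 (SE 0.23, limma adjusted p = 0.113) and with DEIX -0.53 (SE 0.23, limma adjusted p = 0.179).

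The standard subunits, which the inducible ones replace, give a yardstick of RNA from the same library. Psmb5 averaged 104 ± 21.7 FPKM in control and 98.7 ± 6.79 in TBI, Psmb6 142 ± 11.7 and 132 ± 6.35, and Psmb7 71.5 ± 4.25 and 77.9 ± 4.99 (SD, n = 3). None of the 3 was called with limma in any comparison, and 0 had an unadjusted p under 0.05. The ratio Psmb8/Psmb5 was 1.17 ± 0.159 in control and 0.828 ± 0.120 in TBI, Psmb9/Psmb6 was 0.541 ± 0.125 and 0.298 ± 0.0508, and Psmb10/Psmb7 was 0.640 ± 0.129 and 0.345 ± 0.0334 (SD, n = 3). In each pair the TBI libraries lay below all controls. The differences in log2 ratio were -0.50, -0.85 and -0.88, each with an exact two-sided permutation p = 0.1, the smallest that 3 libraries against 3 allow, and 0.2 after Benjamini-Hochberg adjustment over the 12 ratio tests made.

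With DEIX alone the ratios were 1.07 ± 0.166, 0.357 ± 0.0442 and 0.440 ± 0.0186 in the same order (SD, n = 3). Psmb9/Psmb6 and Psmb10/Psmb7 lay below all controls, by 0.58 and 0.52 on the log2 scale (exact permutation p = 0.1 for each, adjusted 0.2), and Psmb8/Psmb5 overlapped control (exact permutation p = 0.4). In TBI+DEIX they were 0.869 ± 0.203, 0.394 ± 0.141 and 0.332 ± 0.0834 (SD, n = 3). Against TBI the ratios overlapped in all 3 pairs, with exact permutation p = 0.9, 0.5 and 1.0. Against control only Psmb10/Psmb7 did not overlap, at -0.96 on the log2 scale (exact permutation p = 0.1, adjusted 0.2). Without TBI+DEIX replicate 1 the log2 differences against TBI were 0.26, 0.68 and 0.14, and those against control were -0.24, -0.17 and -0.73, in the order Psmb8/Psmb5, Psmb9/Psmb6, Psmb10/Psmb7.

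**Figure D2:**
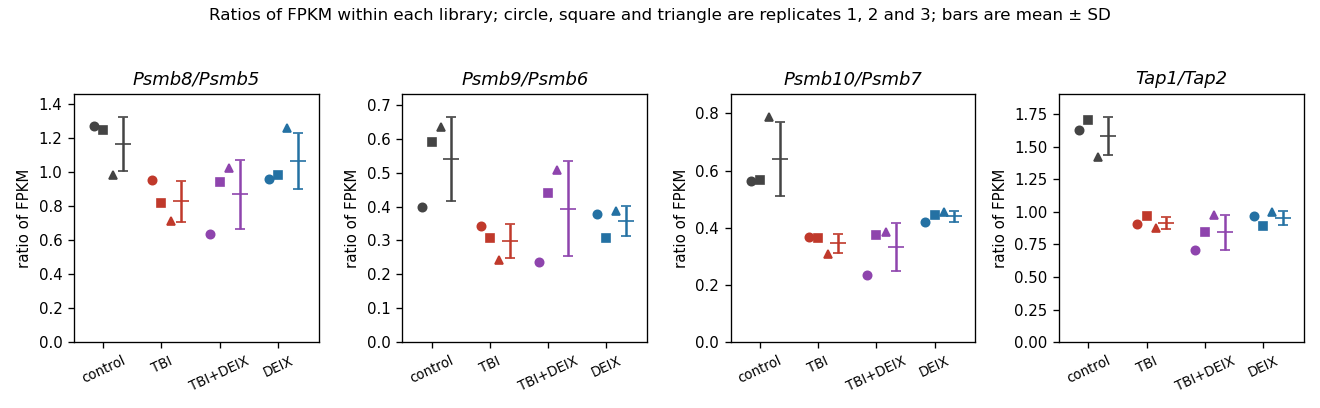
Ratios of FPKM within each library (vertical axes, linear and from 0) for the 3 pairs of inducible and standard subunits and for Tap1 to Tap2, in the 4 groups; symbols are replicates 1 to 3 and bars are the mean ± SD of 3 libraries. The 3 TBI libraries lie below the 3 controls in every panel, and the Tap1/Tap2 ratio is above 1 in control libraries and nowhere else.

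Both PA28 genes were among the more abundant members. Psme1 had 145, 167 and 187 FPKM in control, 134, 121 and 114 in DEIX, 109, 117 and 105 in TBI and 84.6, 127 and 154 in TBI+DEIX, and it had the highest mean of the 9 in every group. TBI and DEIX libraries lay below all controls. Psme2 averaged 123 ± 23.7 FPKM in control, 83.7 ± 11.2 in DEIX, 79.2 ± 4.08 in TBI and 87.1 ± 28.4 in TBI+DEIX (SD, n = 3). The log2 changes after TBI were -0.58 for Psme1 (SE 0.19, limma adjusted p = 0.127) and -0.61 for Psme2 (SE 0.23, limma adjusted p = 0.177), and with DEIX -0.42 and -0.54, none of them called. Psme2b, a copy of Psme2 elsewhere in the genome, was listed separately with between 4.88 and 23.1 FPKM, so reads of the pair may have been shared between them.

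Tapbp had 89.6, 99.4 and 115.5 FPKM in control, 94.6, 77.5 and 93.2 in DEIX, 78.3, 71.2 and 72.2 in TBI and 62.4, 97.7 and 115.4 in TBI+DEIX. TBI libraries lay below all controls, with a log2 change of -0.45 (SE 0.19, limma adjusted p = 0.252). Tapbpl, which encodes the tapasin-related peptide editor TAPBPR and is not a member, had -0.49 (limma adjusted p = 0.133). Erap1 was the least abundant member in every group, with 18.1 ± 2.25, 17.4 ± 1.44, 16.4 ± 1.52 and 18.1 ± 4.28 FPKM in control, DEIX, TBI and TBI+DEIX (SD, n = 3). Its groups overlapped in every comparison, and after TBI its log2 change was -0.13 (95% interval -0.47 to 0.21).

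Read over all 9 genes, TBI against control gave 1 called lower (Tap1) and none called higher. Over all genes tested the shares were 3.1% called lower and 0.891% called higher. Of the 9, 7 had an unadjusted limma p under 0.05, as did 18.1% of all genes. All 9 log2 changes were below 0, with a median of -0.58 against 0.05 over all genes. The TBI libraries lay wholly below control for 7 of the 9, all but Tap2 and Erap1, and for 16.3% of all genes. With array weights, which give each library a weight from its own spread, 8 members were called, all lower, where 16.6% of all genes were called lower.

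DEIX against control again gave 1 called lower (Tap1), where 2.72% of all genes were called lower and 4.52% higher. An unadjusted limma p under 0.05 was found for 5 of the 9 and 24.7% of all genes. All 9 changes were below 0, with a median of -0.42 against 0.02 over all genes. The DEIX libraries lay wholly below control for 5 of the 9 (Psmb9, Psmb10, Psme1, Psme2 and Tap1) and for 17.2% of all genes.

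TBI+DEIX against TBI, the comparison of compound with vehicle in irradiated mice, gave 1 called higher (Tap2) and none lower, where 4.69% of all genes were called higher and 3.41% lower. The unadjusted limma p was under 0.05 for 2 of the 9 and 27.2% of all genes. Tap2 was also the only member whose libraries did not overlap, which held in the upward direction for 14.5% of all genes. The median change of the 9 was 0.13 against 0.00 over all genes, and the changes ran from -0.17 for Psmb10 to 0.52 for Tap2. Tap1 had a log2 change of 0.39 (SE 0.17, limma adjusted p = 0.161). Without TBI+DEIX replicate 1 this was 0.58 (limma adjusted p = 0.0154), the members called were Tap1, Tap2 and Tapbp, all higher, and the median was 0.37. In that fit 16.2% of all genes were called higher. Leaving out TBI+DEIX replicate 3 instead, Tap1 had 0.21 (limma adjusted p = 0.437), Tap2 was no longer called at 0.44 (0.0848) and the members' median was -0.07.

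TBI+DEIX against control gave 2 called lower (Psmb10 and Tap1) and 1 called higher (Tap2), where 13.1% of all genes were called lower and 16.9% higher. Libraries did not overlap for those same genes, downward in 2 against 21.1% of all genes and upward in 1 against 23.9%. The median was -0.48 against 0.02 over all genes, and 6 of the 9 had an unadjusted limma p under 0.05, as did 41.6% of all genes. Without TBI+DEIX replicate 1 the calls were Psmb10 and Tap2, Tap1 was lost (limma adjusted p = 0.0693) and the median was -0.24. In that fit 15.3% of all genes were called lower and 23.2% higher. Leaving out TBI+DEIX replicate 3 instead, 6 members were called lower (Psmb8, Psmb9, Psmb10, Psme1, Psme2 and Tap1) and none higher, and 11.2% of all genes were called lower.

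The interaction, which is the effect of DEIX in irradiated mice minus its effect in unirradiated mice, was called for none of the 9 with limma, where 0.2% of all genes were called. At an unadjusted limma p under 0.05 it held 2 of the 9 and 7.5% of all genes. Of the 9, Tap1 had the largest interaction, 1.14 on the log2 scale (SE 0.24, 95% interval 0.62 to 1.67, limma adjusted p = 0.115, unadjusted p = 0.0005). All 9 estimates were above 0, with a median of 0.52 (0.71 without TBI+DEIX replicate 1). Without TBI+DEIX replicate 1, the largest was that of Psmb9, 1.45 (limma adjusted p = 0.0367), and Tap1 had 1.33 (0.00323). Then 5 members were called, all higher: Psmb9, Psme1, Psme2, Tap1 and Tap2. In that fit 2.56% of all genes were called higher.

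**Figure D3:**
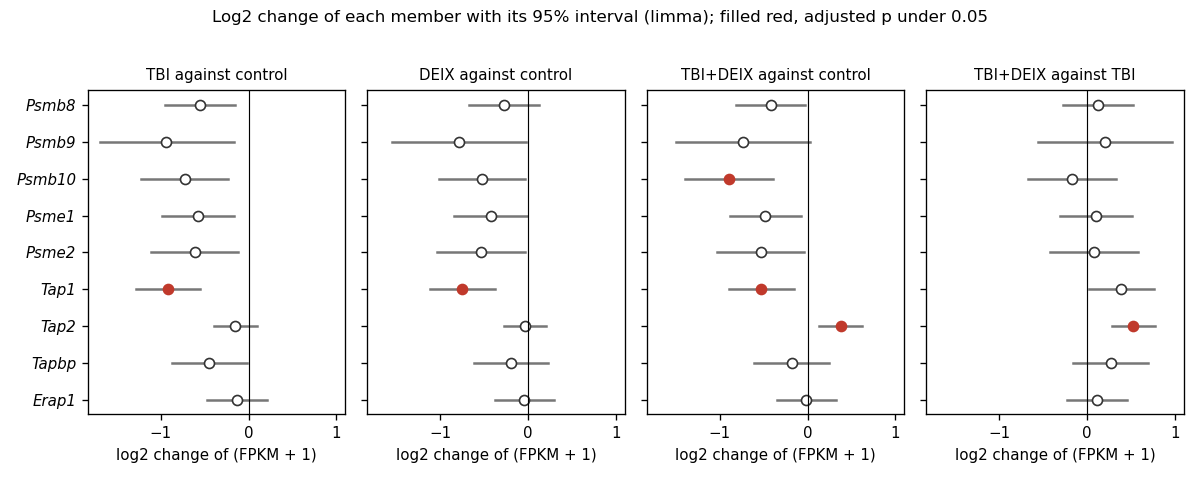
Log2 change of FPKM + 1 (horizontal axis) for each of the 9 genes in 4 comparisons, with the 95% interval from limma; filled red points had an adjusted p under 0.05. All 9 points lie below 0 for TBI and for DEIX against control, Tap1 is the one called in both, and Tap2 is the one called in TBI+DEIX against TBI.

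Over the 36 pairs of the 9 genes and the 12 libraries, Pearson's r of log2(FPKM + 1) ran from -0.36 to 0.98 with a median of 0.837. Tap2 and Erap1 had the low values, and they were set aside after these had been seen. Among the 21 pairs that leave out both, Pearson's r of log2(FPKM + 1) ran from 0.750 to 0.981 with a median of 0.903. After group means had been subtracted the median was 0.863 over all 36 pairs and 0.941 over the 21. Tap2 had an r of 0.26 with the mean of the other members, and Erap1 an r of -0.27. With group means subtracted, Tap2 had an r between 0.762 and 0.853 with each of those 7, and Erap1 had between -0.82 and -0.42 with the other 8. TBI+DEIX replicate 1 was the lowest library for 6 members and the highest for Erap1. Over the 11 libraries without it, the median of the deviations was 0.774 over all pairs and 0.833 over the 21, Tap2 had between 0.761 and 0.963 with the 7, and Erap1 had between -0.47 and 0.35 with the other 8. The libraries share 4 groups and their scaling, so these values are a description. By mean over the 9 genes after centring, libraries scored 0.14, 0.37 and 0.49 in control, -0.17, -0.20 and -0.32 in TBI, -0.46, 0.04 and 0.28 in TBI+DEIX, and 0.07, -0.19 and -0.06 in DEIX. The TBI+DEIX libraries spanned both the lowest value and one within the control range. The 5 other genes whose pattern over the 12 libraries was most like that score were Trafd1 (r = 0.989), Ogfr (0.966), Ifi35 (0.961), Dhx58 (0.959) and the class I gene H2-T22 (0.958).

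**Figure D4:**
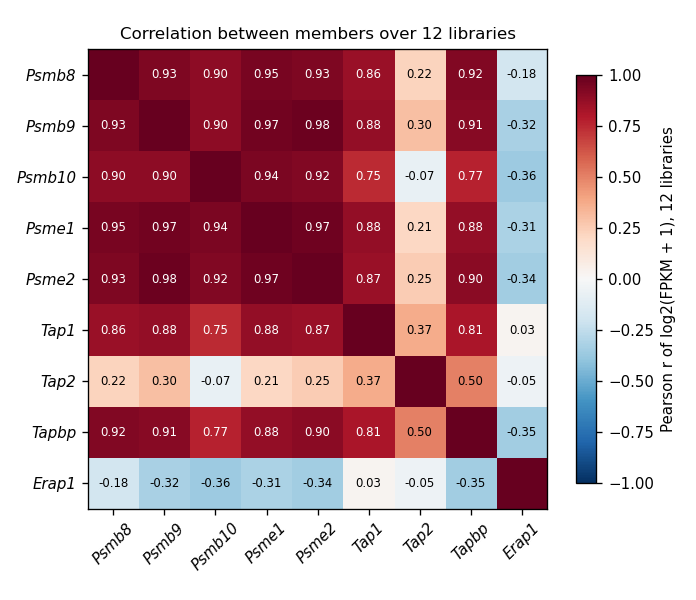
Pearson's r of log2(FPKM + 1) between each pair of the 9 genes over 12 libraries, printed in each square and coloured from -1 (blue) to 1 (red). The 7 genes other than Tap2 and Erap1 form a block with r between 0.750 and 0.981.

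Genes for the rest of the proteasome were mostly not called. Of 11 other subunits of the 20S core, none was called with limma in any of the 4 comparisons between groups, 0 to 2 had an unadjusted p under 0.05, and the medians lay between -0.14 and 0.07. Of 18 subunits of the 19S regulatory particle, which recognises tagged proteins, none was called either, and 0 to 4 had an unadjusted p under 0.05. Their median after TBI was 0.21, with 17 of the 18 changes above 0. In TBI+DEIX against control 14 were above 0, and in TBI+DEIX against TBI 15 were below 0. Of 8 other activators and assembly factors, the chaperone Psmg2 fell in TBI+DEIX against TBI, by 0.45 (limma adjusted p = 0.0466; -0.41, 0.0417 without TBI+DEIX replicate 1), and Psmg2 and Psmg4 were called lower in TBI+DEIX against control (-0.42, 0.0257 and -0.83, 0.00170 without that library). Of 12 other loading and trimming genes, none was called after TBI. The cytosolic aminopeptidase Npepps rose with DEIX alone, by a log2 change of 0.71 (limma adjusted p = 0.0354), and in TBI+DEIX against control, by 1.09 (limma adjusted p = 0.00140; 1.08, 0.00193 without TBI+DEIX replicate 1), where Lnpep was also called higher (0.40, 0.0357 without that library).

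Class I heavy chains present the peptides. Of 6, the 4 called lower in each comparison with control were H2-K1, H2-M3, H2-Q4 and H2-Q7, and the medians were -1.24 after TBI, -0.82 with DEIX and -0.89 in TBI+DEIX (-0.64 without replicate 1, with 4 called). H2-Q7 had 49.8, 71.5 and 46.3 FPKM in control and 6.94, 11.9 and 9.15 in TBI, a log2 change of -2.46 (SE 0.39, limma adjusted p = 0.00560). None of the 6 was called with limma in TBI+DEIX against TBI, where 2 had an unadjusted p under 0.05 and the median was 0.45, whereas 4 were called higher without TBI+DEIX replicate 1, with a median of 0.81. H2-Q4 was called in the interaction (1.79, limma adjusted p = 0.0268), also without that library (1.91, 0.00364). B2m, the light chain, had 2303, 2835 and 2059 FPKM in control and 1341, 1427 and 1132 in TBI, and its log2 change of -0.88 was not called (limma adjusted p = 0.382). In TBI+DEIX replicate 1 it had 465 FPKM, against 1896 and 2475 in the other replicates.

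Nlrc5, the class I transactivator, was lower in every treated library than in any control library. It had 15.6, 18.9 and 15.2 FPKM in control, 9.51, 8.53 and 9.45 in DEIX, 5.52, 7.30 and 6.22 in TBI and 6.02, 9.83 and 12.9 in TBI+DEIX. Nlrc5 fell by 1.26 after TBI (SE 0.21, limma adjusted p = 0.00721), by 0.79 with DEIX (limma adjusted p = 0.0454) and by 0.78 in TBI+DEIX against control (limma adjusted p = 0.0163; -0.51, 0.0156 without TBI+DEIX replicate 1). Its change in TBI+DEIX against TBI was 0.48 and was not called (limma adjusted p = 0.165). It was 0.75 and was called without TBI+DEIX replicate 1 (limma adjusted p = 0.00759). Of the 17 regulators listed, 3 were called lower after TBI: Nlrc5, Rfx5, a factor that binds class I and class II promoters, and Socs1, an inhibitor of interferon signalling. With DEIX the same 3 were called lower and 2 were called higher, Ifngr1, a chain of the interferon gamma receptor (0.62, limma adjusted p = 0.0328), and the kinase Jak1 (0.37, 0.0457), and Jak1 was also called higher in TBI+DEIX against control (0.43, 0.00808; 0.50, 0.00206 without TBI+DEIX replicate 1). Socs1 rose in TBI+DEIX against TBI (0.69, limma adjusted p = 0.0203) and was called in the interaction (1.52, limma adjusted p = 0.0142), whereas Irf8, a factor of monocytes, dendritic cells and B cells, fell by 1.03 (limma adjusted p = 0.0240). Without TBI+DEIX replicate 1, Socs1 had 0.70 and 1.53 (limma adjusted p = 0.0120 and 0.00296) and Irf8 -0.73 (0.00895), and 9 of the 17 were called higher in TBI+DEIX against TBI. In TBI+DEIX against control 3 were called lower, Nlrc5, Rfx5 and Irf8, with Irf8 the most changed at -1.92 (-1.62 without TBI+DEIX replicate 1). Irf1, an interferon-induced factor that acts on class I pathway promoters, had a log2 change of -0.40 after TBI (limma adjusted p = 0.475) and was not called in any comparison.

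Of the genes that interferons induce, a minority passed the test after TBI. Of 8 tested interferon gamma GTPases and chemokines, 3 were called lower after TBI (Gbp3, Igtp and Irgm1), with a median of -1.01 over the list. Of 15 interferon stimulated genes, 1 was called lower after TBI (Ifi44, by 1.53, limma adjusted p = 0.00148), 3 with DEIX and 8 in TBI+DEIX against control, with medians of -2.09, -1.77 and -1.98. An unadjusted limma p under 0.05 after TBI was found for 13 of the 15 and 18.1% of all genes. Ifi44 was a low gene that passed the filter only through control, with 3.14, 3.35 and 2.17 FPKM there and 0.122, 0.393 and 0.514 in TBI. Ifit3, with means of 35.7 FPKM in control and 3.46 in TBI, was not called after TBI. The TBI and the DEIX libraries lay below all controls for 15 of the 15, and the TBI+DEIX libraries for 10. The TBI+DEIX libraries differed widely, with summed FPKM of 34, 419 and 738 against 1120, 1388 and 1332 in control. Without replicate 1 the median against control was -0.99, with 8 of 15 called lower. Neither list had a gene called with limma in TBI+DEIX against TBI, where 1 GTPase or chemokine and 0 stimulated genes had an unadjusted p under 0.05. This was otherwise without TBI+DEIX replicate 1, where 7 of 8 and 10 of 15 were called higher, with medians of 1.02 and 1.01.

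**Figure D5:**
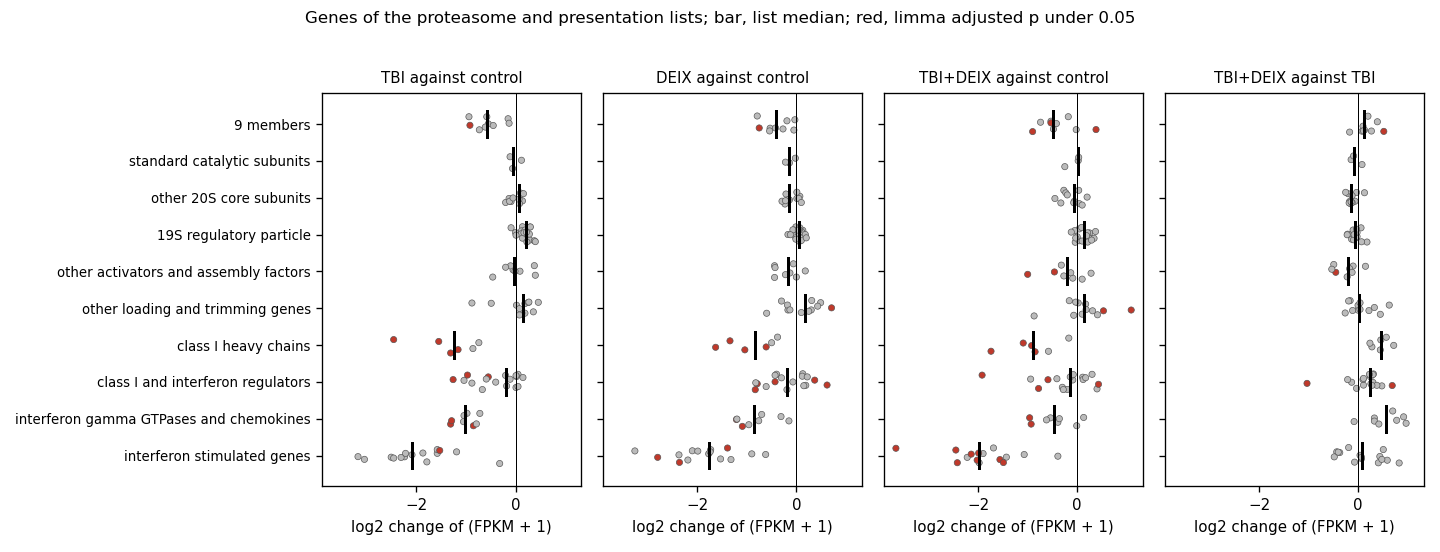
Log2 change of FPKM + 1 (horizontal axis) of every tested gene of the proteasome, presentation and interferon lists in 4 comparisons; each point is a gene, black bars are list medians, and red points had a limma adjusted p under 0.05. The 20S core list sits near 0 in all panels, and 17 of the 18 points of the 19S list lie above 0 after TBI, with a median of 0.21. All points of the class I heavy chains and of the interferon stimulated genes lie below 0 against control.

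Of the markers of cells that express this machinery strongly, 2 of 10 B lineage, 3 of 10 T and NK and 1 of 5 tested dendritic cell markers were called lower after TBI. Over all genes that share was 3.1%. The summed FPKM of 10 B lineage markers was between 374 and 461 in control, 64.7 and 99.1 in DEIX, 25.2 and 286 in TBI and 7.17 and 147 in TBI+DEIX. The sum of 10 T and NK markers ran from 188 to 221 in control and from 106 to 146 in TBI, and that of 6 dendritic cell markers from 718 to 841 and from 250 to 470. Marker sums of DEIX libraries were between 144 and 202 for T and NK and between 385 and 559 for dendritic cells. Nkg7 made up most of the T and NK sum, with 172 of 202 in DEIX replicate 1. Of the 10 genes, 8 lay wholly below control with DEIX, as did 17.2% of all genes, and Cd2 and Gzma were called lower. In TBI+DEIX they ran from 61.7 to 158 and from 149 to 749, and TBI+DEIX replicates 2 and 3 lay within the control range for dendritic cells. That sum is mostly the class II genes Cd74, H2-Aa and H2-Ab1, which B cells also express. The plasmacytoid marker Siglech had 2.43, 5.94 and 2.25 FPKM in TBI+DEIX against 28.1, 26.5 and 25.4 in control, a log2 change of -2.70 (limma adjusted p = 0.000111; -2.54 and 0.000150 without replicate 1). Clec9a, a marker of conventional dendritic cells, had 0.351, 2.76 and 1.05 FPKM against 4.21, 3.76 and 2.69 and was also called lower (-1.05, 0.0235). Its libraries overlapped those of control, and without replicate 1 its change was -0.70 (0.0442). Xcr1, another marker of conventional dendritic cells on the list, was below the filter and its mean went the other way. It had 0.0913, 1.45 and 0.371 FPKM in TBI+DEIX against 0.131, 0.0747 and 0.0492 in control. Among other cells, 3 of 6 megakaryocyte and 2 of 5 stem and progenitor markers were called lower after TBI. In TBI+DEIX against control the counts called lower were 9 of 10 B lineage, 4 of 10 T and NK, 6 of 8 erythroid, 5 of 6 megakaryocyte and 4 of 5 stem and progenitor markers, and 3 of 7 maturing neutrophil markers were called higher. Leaving out replicate 1 these counts were 7, 4, 2, 5, 4 and 6. Over all genes 13.1% were called lower and 16.9% higher in this comparison, and 15.3% and 23.2% without replicate 1. In TBI+DEIX against TBI, 3 of 8 erythroid markers were called lower, as were 3.41% of all genes. The median of these markers was -2.61 (-2.14 with 4 called without replicate 1), and libraries lay below TBI without overlap for all 8, as for 12.7% of all genes. No gene of these lists was at 0 in all libraries of a group. Their part in the levels of the 9 genes was not tested.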

How the data were processed

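The deposited table holds FPKM values that the authors computed, 1 column per library. Per the submitters' processing notes, STAR 2.6, Cufflinks 2.2.1 and mm10 were used, and per the labels' protocols the mRNA libraries were directional. Whether counting used strand is not given in the sources used here, so reads of overlapping opposite-strand genes may not be separated. In gene spans Psmb10 shares 2710 bases with Gm16156, Tap2 3148 with Gm15821 and 1923 with Gm20496, Psmb8 2139 with Gm20496, Tapbp 1207 with Gm19412, Erap1 834 with Cast, and Tap1 212 with Psmb9. Tapbp also shares 3422 with Zbtb22 on its own strand, which strand would not separate. The values of these members are uncertain to that extent. Symbols and coordinates came from GENCODE vM21, in which all 21853 identifiers matched. Sequences are RefSeq's (GRCm38.p6).

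Genes with FPKM of at least 1 in at least 3 libraries were tested on log2(FPKM + 1) with limma 3.58.1 in R 4.3.3 (mean-variance trend, 1 model of 4 groups, 8 residual degrees of freedom), after the script had been tested on simulated data. The scale understates changes of low genes. The FPKM files hold no counts, so no count model or interval from depth was used. Ratios were tested by exact permutation in SciPy 1.17.1.

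The genes named are the 9 members, the standard catalytic subunits, B2m, Nlrc5, Irf1 and Tapbpl, the called gene with the largest change in each pathway list and comparison, and the 5 genes most like the member score. One further gene of the rule is not reported here. Others in called groups, and Xcr1, were named after their values were seen. Members and lists were chosen with earlier results of these data known. Alternatives were another pseudocount, filters, 3 scalings, array weights, only the groups compared, a replicate block and leaving out each library.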

Additional observations from a re-analysis of the deposited data

How the results depend on the processing

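After TBI, the count of members called (1) was 5 on a TPM scale that leaves out S100a8, S100a9 and Ngp, each listed at 0 in some libraries, 4 with quantile normalization, 7 with only the groups compared, 8 with array weights, and 0 to 1 when each library was left out. With DEIX it (1) was 3, 3, 5 and 6 in that order, and 0 without any 1 library. In TBI+DEIX against TBI it (1) was 0 on either TPM scale, 0 with only the groups compared, 5 with array weights and 0 to 3 without 1 library. In TBI+DEIX against control it (3) was 6 on both TPM scales and with quantile normalization, 0 with only the groups compared, 6 with array weights and 1 to 6 without 1 library. In the interaction it (0) was 1 on both TPM scales, 7 with array weights and 0 to 5 without 1 library. The members' median in TBI+DEIX against TBI was 0.36 with array weights and -0.07 to 0.37 without 1 library, and against control -0.67 to -0.24. Array weights were 0.0709 for TBI+DEIX replicate 1, 11.02 for control replicate 2, 3.76 for TBI replicate 2 and 0.448 to 1.57 for the others, so the counts with array weights lean on single libraries. The cause of these shifts was not tested.

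Over all genes, 439 were called after TBI: 134 at a mean FPKM of at least 5, 675 with no filter, 253 and 291 on the TPM scales with and without those 3 genes, 1417 with only the groups compared, 4218 with array weights, 438 with quantile normalization and 153 to 259 without 1 library. With DEIX (796) the counts were 282 and 408 on the TPM scales, 618 with quantile normalization, 2057 with only the groups compared, 4508 with array weights and 146 to 938. TBI+DEIX against TBI (891) gave 157 and 488 on the TPM scales, 0 with only the groups compared (2015 at an unadjusted limma p under 0.05), 4488 with array weights and 5 to 2836. TBI+DEIX against control (3299) gave 1785 and 2553 on the TPM scales, 3142 with quantile normalization, 2181 with only the groups compared, 6187 with array weights and 2004 to 4232. The interaction (22) gave 11 with a pseudocount of 0.1, 7 at a mean FPKM of at least 5, 37 with no filter, 532 with array weights and 4 to 331. The share of calls that were higher was 62.4% with DEIX and 19.1% on the TPM scale, 57.9% and 34.4% in TBI+DEIX against TBI, 56.2% and 30.6% against control, and 22.3% and 9.49% after TBI, and the TPM scale put the median of all genes at -0.12 with DEIX and in TBI+DEIX against TBI.

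Replicate numbers did not pair libraries: 3 of 18 same-numbered pairs correlated over 0.1 in their deviations, and 3 correlated best with their own number. With the replicate block, TBI+DEIX against TBI had 474 genes called. 

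Reversals were of changes that the tests had not called, most of them small; those of Ifi27l2a, Ifit3 and B2m without 1 library were large, and Ifi27l2a was called at 1.49 without TBI+DEIX replicate 1 (limma adjusted p = 0.0182). In TBI+DEIX against TBI the TPM scale, the TPM scale without the 3 genes and quantile normalization gave B2m -0.13, -0.10 and -0.13, Psmb5 -0.06, -0.03 and -0.06, Psme1 -0.03, -0.01 and -0.05, and Psme2 -0.05, -0.03 and -0.05. Psmb8 had -0.01 on the TPM scale and with quantile normalization, Erap1 -0.01 on the TPM scale, and Ifi44 -0.03 and -0.04 on the TPM scales. Array weights gave Erap1 -0.07, Psmb10 0.07 and Ifi27l2a 0.77. Without 1 library the ranges were -0.46 to 0.74 for B2m, -0.15 to 0.72 for Dhx58, -0.07 to 0.21 for Erap1, -1.70 to 1.49 for Ifi27l2a, -0.07 to 0.47 for Ifi35, -0.09 to 0.21 for Ifi44, -0.21 to 1.78 for Ifit3, -0.02 to 0.33 for Ogfr, -0.37 to 0.14 for Psmb10, -0.17 to 0.00 for Psmb7, -0.07 to 0.35 for Psmb8, -0.11 to 0.66 for Psmb9, -0.09 to 0.34 for Psme1 and -0.12 to 0.37 for Psme2. The log2 ratios ranged from -0.21 to 0.14 for Psmb10/Psmb7 and from -0.08 to 0.26 for Psmb8/Psmb5.

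In TBI+DEIX against control, Psmb5 had -0.11, -0.07 and -0.17 and Psmb7 -0.09, -0.06 and -0.16 on the 3 scalings, and array weights gave Irf1 0.20 and Tapbp 0.06. Without 1 library the ranges were -0.20 to 0.08 for Erap1, -0.37 to 0.27 for Irf1, -0.11 to 0.18 for Psmb5, -0.05 to 0.13 for Psmb7 and -0.37 to 0.07 for Tapbp. With DEIX, array weights put Tap2 at 0.00, and the ranges were -0.15 to 0.02 for Erap1, -0.29 to 0.02 for Psmb5, -0.11 to 0.06 for Psmb7 and -0.12 to 0.05 for Tap2. After TBI, Psmb5 had 0.01 and Psmg2 0.13 with array weights, Psmg2 had 0.01 on the TPM scale without the 3 genes, and the ranges were -0.19 to 0.10 and -0.06 to 0.07. In the interaction, Psmb7 had 0.09 and Psmg4 0.10 with array weights and Psmg2 0.01 on the TPM scale and with quantile normalization, and the ranges were -0.02 to 0.26 for Erap1, -0.31 to 0.10 for Npepps, -0.02 to 0.22 for Psmb6, -0.15 to 0.02 for Psmb7, -0.11 to 0.06 for Psmg2 and -0.24 to 0.07 for Psmg4. The median r of Erap1 with the other members was -0.32, and 0.15 without TBI+DEIX replicate 1, a setting chosen after seeing the data. With reads per library not given, the precision of low genes is unknown.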
